A study of Homo sapiens with 8 samples.

Results

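The peaks described here lie at the centromere of human chromosome 16 and in the long-arm heterochromatin next to it, band 16q11. They were taken from the deposited peak lists by position alone: every peak on chromosome 16 with a start from 34 Mb up to 53 Mb on genome build hs1. That gave 1374 peaks of 65588 in both lists, of which 740 were in the mitotic list and 634 in the asynchronous list. Peaks with a start below 38000000 form the centromeric part, with 716 mitotic and 603 asynchronous peaks. Those from 38000000 form the part rich in satellite 2, with 24 mitotic and 31 asynchronous peaks.

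The lists come from ChIRP-seq, in which biotinylated antisense probes, here against α-satellite RNA, capture an RNA together with its chromatin out of sheared cells, and the DNA that comes along is sequenced. The cells were wild-type RPE1, an immortalised human line of retinal pigment epithelium, either mitotic or growing asynchronously. Of 8 libraries in 6 groups, each condition had an Odd and an Even probe library, 1 input library and 1 library labelled Scr. The deposited lists, 1 per condition, each rest on the Odd and Even libraries combined; the input and Scr libraries were not analysed here. The labels do not state how the mitotic cells were collected. With 1 list per condition there is no replicate error and no difference between conditions was tested. Intervals are exact, at 95%, and cover counting error only, treating neighbouring peaks as independent. Sequencing depth is unknown.

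Human centromeres are built on α-satellite, a repeat of short monomers that are arranged, in the arrays that carry the kinetochore, into near-identical higher-order units. The transcripts of these arrays have been described as staying close to the chromatin they come from, which was not tested here. On chromosome 16 the centromere is followed on the long arm by a large block of satellite 2, a different repeat built from diverged copies of a very short simple sequence. Chromosomes 1, 9 and 16 carry the large classical satellite blocks of the human karyotype, and those of chromosomes 1 and 16 are known for undercondensing when their DNA methylation is lost. No hs1 sequence or repeat annotation was used, so the names centromeric and satellite 2 rich rest on position and were not checked against sequence.

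The centromeric peaks formed a single sharply bounded array in both conditions. All 716 mitotic peaks lay between 35680604 and 37860120. Of the asynchronous peaks 602 lay between 35680034 and 37863373, so the outer edges of both lists differed by 570 bp on the short-arm side and 3253 bp on the long-arm side. The short-arm edge was sparse, with a few outlying peaks set apart from the body of the array by a bare stretch, described below. Of the 100 kb from 35600000, peaks covered 2.96% in mitotic and 3.90% in asynchronous cells. The remaining asynchronous peak, of 220 bp at 34813950, stood alone. The 1.68 Mb from 34000000 up to the array held no mitotic peak. Peaks covered 948572 bp, or 43.5% of the array span, in mitotic cells and 942131 bp, or 43.2%, in asynchronous cells.

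The mitotic list divided nearly the same covered length into more and narrower peaks. The ratio of mitotic to asynchronous peaks in the centromeric part was 1.19 (1.06 to 1.33), while the ratio of covered length was 1.01. Over the whole lists the ratio of peaks was 1.05 (1.03 to 1.06) and that of covered length 1.01. Median peak width was 919 bp in the mitotic list, with quartiles of 492 and 1717 bp, against 1020 bp in the asynchronous list, with quartiles of 534.5 and 1881 bp. Widths ran from 142 to 15492 bp in mitotic and from 198 to 13395 bp in asynchronous cells. Narrower mitotic peaks were not particular to this array. Over the whole lists the median width was 796 bp in mitotic and 868 bp in asynchronous cells. In the array window of chromosome 1, described below, it was 724 and 941 bp. In that of chromosome 9 the order was the other way, with 3043 bp in mitotic and 2648 bp in asynchronous cells.

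Coverage was uneven along the array, and its profile was only partly alike in both conditions. In bins of 100 kb, the mitotic list was highest from 37100000, with 69.2% of the bin covered against 56.3% in the asynchronous list. The asynchronous list was highest from 36400000, with 59.0% covered in mitotic and 63.5% in asynchronous cells. Towards the short-arm end, the bin from 35700000 was covered over 10.8% in mitotic and 9.57% in asynchronous cells. Among the 20 inner bins from 35800000 to 37799999, those from 35900000 and 36000000 were the lowest in both lists. The first was covered over 28.7% in mitotic and 26.2% in asynchronous cells, and the second over 21.7% and 28.2%. The bin from 36200000 was about as low in the asynchronous list, at 29.6%, but not in the mitotic list, at 47.9%. Across the inner bins, coverage in both lists had a Pearson r of 0.45 and a Spearman rho of 0.30. This is a description of bins that share the assembly sequence and the libraries of each list.

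**Figure D1:**
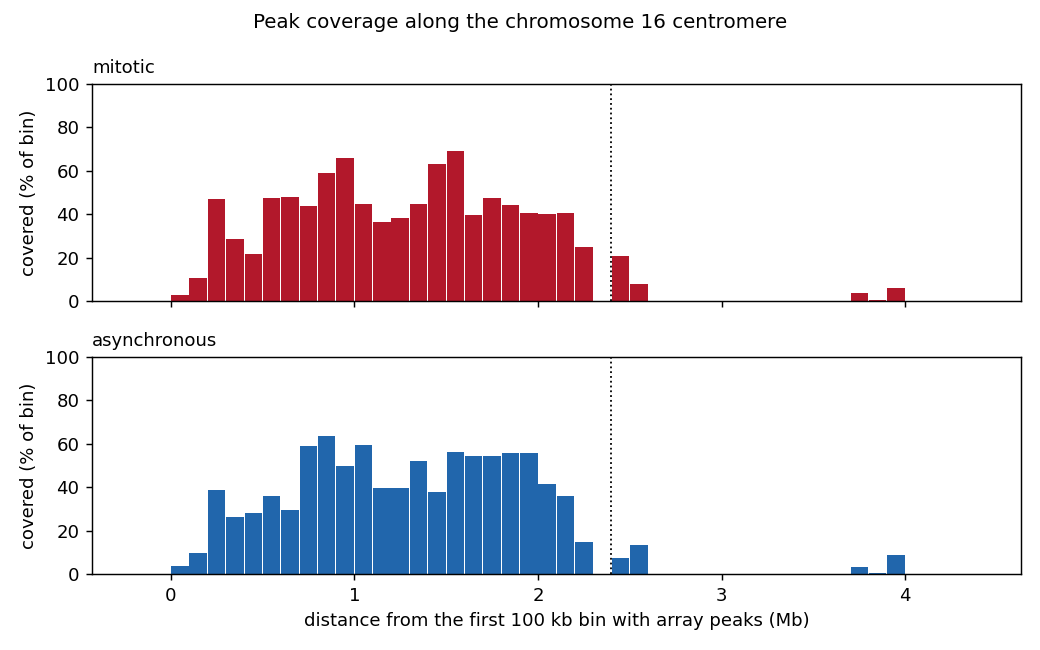
Percent of each 100 kb bin covered by peaks (y) against the distance from the first bin with array peaks (x, Mb), in mitotic cells (upper panel) and asynchronous cells (lower panel). The dotted line marks the position of 38000000. The array of both lists ends before it. Among the inner bins both are lowest from 35900000 and 36000000, while the highest bin differs, at 69.2% in the mitotic and 63.5% in the asynchronous list.

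The largest local differences went in both directions. The bin from 37000000 had 63157 bp covered in mitotic against 37894 bp in asynchronous cells. Mitotic coverage was also higher in the bin from 36200000, with 47866 against 29614 bp, and in that from 36500000, with 65713 against 49772 bp. Asynchronous coverage was higher in the bin from 37500000, with 40550 bp in mitotic and 55875 bp in asynchronous cells. The bins from 36300000 and 36600000 had 43915 and 44493 bp in mitotic against 58792 and 59345 bp in asynchronous cells. Of the 20 inner bins, 8 were higher in the mitotic list and 12 in the asynchronous list, so the near-equal totals were a balance of such local differences.

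Chromosome 16 peaks were weak relative to both lists. Fold enrichment, the authors' ratio of pileup over local background for each peak, had a median of 6.43 in the mitotic centromeric part and 6.32 in the asynchronous one. The medians of the whole lists were 7.98 and 7.73. Only 2 of 716 mitotic peaks (0.279%, 0.0338 to 1.01%) and 4 of 603 asynchronous peaks (0.663%, 0.181 to 1.69%) were in the top 25% of their list by fold enrichment. A fold enrichment of at least 6 with a −log10 q of at least 5 was reached by 441 mitotic peaks, 61.6% (57.9 to 65.2%), where 77.6% of the whole mitotic list reached it. In the asynchronous list it was reached by 346 peaks, 57.4% (53.3 to 61.4%), where 73.7% of the list did. Over all its peaks, chromosome 16 had the second lowest median fold enrichment of 23 chromosomes in mitotic and the fourth lowest in asynchronous cells.

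**Figure D2:**
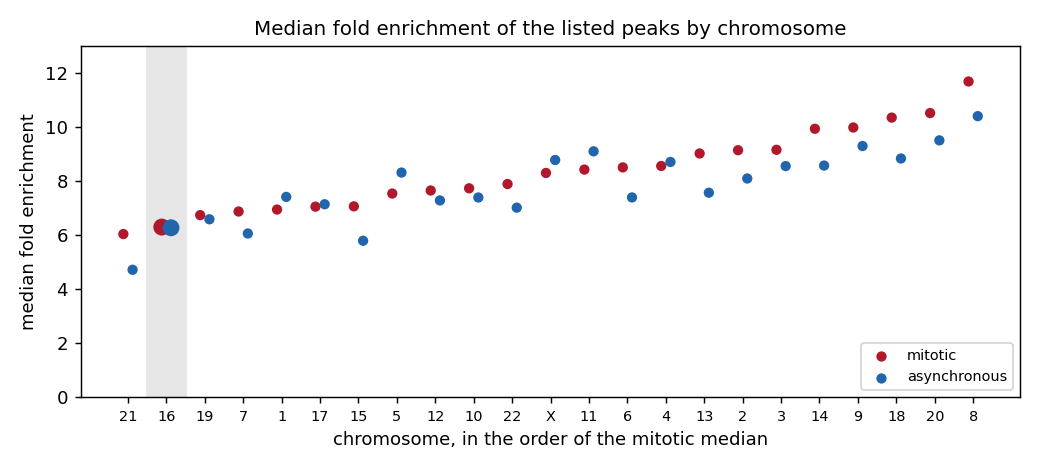
Median fold enrichment of all listed peaks (y) for each of 23 chromosomes (x, ordered by the mitotic median), with mitotic medians in red left of asynchronous medians in blue. The larger points on grey mark chromosome 16, at 6.30 in the mitotic and 6.28 in the asynchronous list, next to the low end.

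Of the 5 strongest mitotic peaks, 3 lay within 131 kb of an end of the array, a limit read from these peaks. Of the 5 strongest asynchronous peaks, the nearest to an end started at 35828401 and lay wholly under a mitotic peak of 9.66-fold. Because the limit was set by the mitotic peaks, it does not compare the conditions. The peak with the highest mitotic fold enrichment, 11.05, spanned 37840404 to 37851997, 8.12 kb from the long-arm end of the mitotic peaks. The asynchronous list covered 58.0% of it with 1 peak of 8.86-fold. The second, from 35811230 to 35814547, 131 kb inside the short-arm end, had 11.005-fold enrichment, and 1 asynchronous peak of 8.65-fold covered 90.2% of it. Beside it lay the widest mitotic peak, 15492 bp from 35794729, at 9.88-fold, 80.8% of which was covered in asynchronous cells at up to 8.67-fold. The other two, at 37314630 and 36626152, were 1191 and 721 bp wide with 9.89-fold and 9.77-fold enrichment, and both lay wholly under an asynchronous peak.

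A fold enrichment of at least 9 was reached by 5 of 32 mitotic peaks with starts from 35600000 to 35899999, by 12 of 678 from 35900000 to 37799999 and by 1 of 6 from 37800000. In the asynchronous list it was reached by 3 of 36, 17 of 557 and 0 of 9 peaks in the same stretches. Of the whole mitotic list 32.3% was above 9.30-fold, and of the whole asynchronous list 26.8% was above 9.56-fold. Each stretch thus had a smaller share of peaks at the mark of 9 than its list at large. The stretches and the mark of 9 were chosen after the values were seen, and the counts are a description. Most of the strongest asynchronous peaks were narrow. The highest, 12.2-fold and 420 bp wide at 35876078, was 94.0% covered by a mitotic peak of 9.61-fold. The second, 10.9-fold and 772 bp wide at 36394176, met no mitotic peak.

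**Figure D3:**
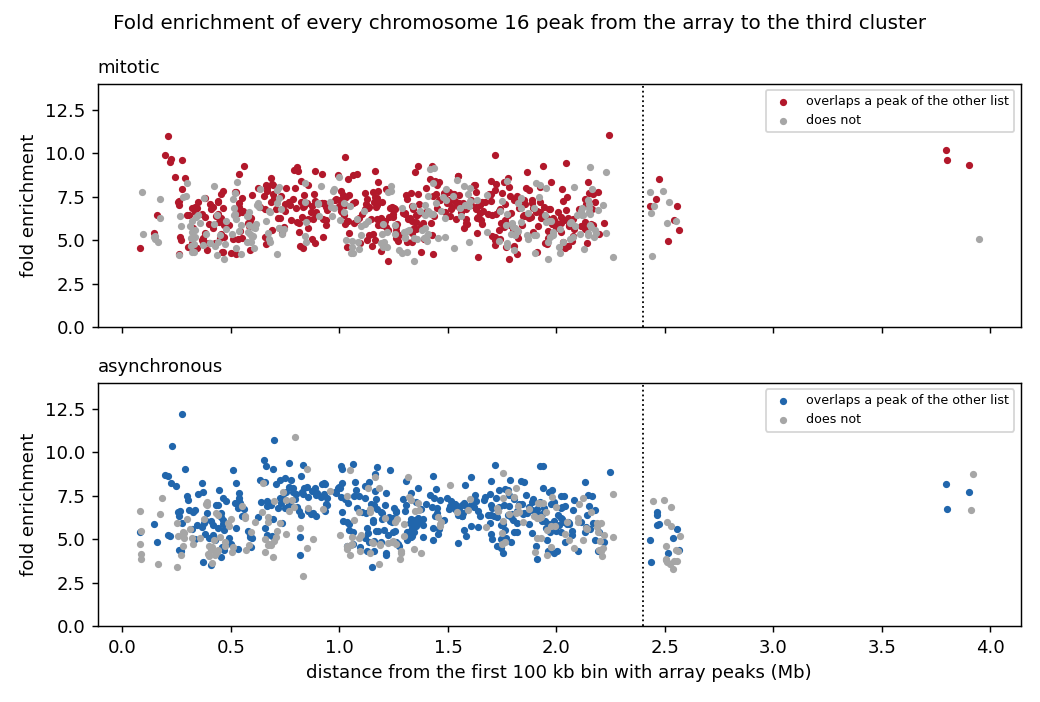
Fold enrichment of each listed peak (y) against the distance from the first 100 kb bin with array peaks (x, Mb) in mitotic cells (upper panel) and asynchronous cells (lower panel). Coloured points overlap a peak of the other list by at least 1 bp and grey points do not. The dotted line marks the position of 38000000. The highest mitotic points, at 11.05 and 11.005, stand 8.12 kb from the long-arm end and 131 kb from the short-arm end of the array.

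A smaller share of chromosome 16 peaks than of the lists at large was shared between conditions. At an overlap of at least 1 bp, 454 mitotic centromeric peaks met an asynchronous peak, 63.4% (59.8 to 66.9%), against 79.2% in the whole mitotic list. Of the asynchronous peaks 406 met a mitotic one, 67.3% (63.4 to 71.1%), against 81.9% in the whole list. The lists shared 519242 bp of the centromeric part, 54.7% of the mitotic and 55.1% of the asynchronous covered length, where the whole lists shared 80.4% and 81.4%. Shared over combined base pairs, the Jaccard index, was 37.9% here and 67.9% over the whole lists. With a reciprocal overlap of at least 50%, 204 peaks of each list still met, 28.5% of mitotic and 33.8% of asynchronous centromeric peaks. Over the whole lists that rule was met by 51.3% of mitotic and 53.8% of asynchronous peaks. The part of coverage in these shares was not tested.

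Peaks found in a single list were weaker and narrower than shared ones, here as in the whole lists. The 262 unshared mitotic peaks had a median of 5.93-fold and 676.5 bp, against 6.62-fold and 1095.5 bp for the shared mitotic peaks. The 197 unshared asynchronous peaks had a median of 5.70-fold and 621 bp, against 6.54-fold and 1259 bp for the shared ones. Over the whole mitotic list the medians were 5.57-fold and 394 bp for unshared and 8.61-fold and 944 bp for shared peaks, and over the asynchronous list 5.30-fold and 444 bp against 8.32-fold and 997 bp. A wide peak meets another more easily at an overlap of 1 bp, so the difference in width is partly set by the rule. Some unshared peaks were nevertheless wide. The mitotic peak from 37829752 to 37840294, 10543 bp wide at 8.93-fold, and that from 37068954 to 37078669, 9716 bp wide at 6.70-fold, met no asynchronous peak, although 11 and 2 asynchronous calls were missing around them. The widest asynchronous peak, 13395 bp from 37208104 at 6.96-fold, was 14.1% covered in mitotic cells. The asynchronous peak of 10957 bp from 36354130, at 7.74-fold, was 10.4% covered in mitotic cells.

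The unshared peaks could not be separated from the authors' filter. Peak names carry running numbers in genome order, and a missing number was taken to be a call that the authors removed. In the array, 1042 of 1758 mitotic calls and 854 of 1456 asynchronous calls had been removed, which left 40.7% and 41.3% listed. For 260 of the 262 unshared mitotic peaks, at least 1 asynchronous call was missing between the listed asynchronous peaks on either side. For all 197 unshared asynchronous peaks at least 1 mitotic call was missing in the same sense. These counts were not taken over the whole lists, so whether they are particular to this array is not known. The missing calls have no positions, so whether any lay under a given peak is not known.

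Of the uncovered stretches between neighbouring array peaks, 311 of 715 in the mitotic list (43.5%) and 286 of 601 in the asynchronous list (47.6%) held no removed call. Calls were missing in each of the 6 longest stretches of either list. The stretch from 37209996 to 37222002 was without a mitotic peak but 98.3% covered in asynchronous cells, and 3 mitotic calls were missing in it. The one from 36355273 to 36367201 was 96.8% covered in asynchronous cells, with 5 mitotic calls missing. In the other direction, the stretch without asynchronous peaks from 36496323 to 36515728 was 70.3% covered in mitotic cells, with 4 asynchronous calls missing. That from 37821621 to 37845275 was 68.9% covered in mitotic cells, with 11 missing. The longest stretch was common to both lists: from 35694445 to 35744377 neither list had a peak, and 4 mitotic calls were missing there. In the asynchronous list the bare stretch was longer, from 35686448 to 35746475, with 12 calls missing. It separates a few outlying peaks from the body of the array. These stretches were chosen after the lists were seen.

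The most frequent distance between peaks differed between the lists. Among starts closer than 5000 bp, the most frequent distance in a window of 51 bp was 4850 bp in the mitotic list, with 27 pairs where the mean window held 11.6. In the asynchronous list it was 899 bp, with 18 pairs where the mean window held 8.45. Peak midpoints gave 2899 bp in mitotic and 1564 bp in asynchronous cells, so neither distance kept its value with another reading of position. Less frequent distances were not compared.

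Past 38000000 the lists held few peaks, and nearly all of them lay within the first 1.55 Mb. When peaks of both lists at most 100 kb apart were joined, there were 5 clusters. The first 3, up to 39545556, held 19 of the 24 mitotic peaks and all 31 asynchronous peaks. The 9.50 Mb that follow, up to 49045028, held no peak in either list, and the last 2 clusters held mitotic peaks and no asynchronous ones. Covered length in the whole satellite 2 rich part was 40449 bp in mitotic and 33410 bp in asynchronous cells. The ratio of peaks, mitotic over asynchronous, was 0.774 (0.435 to 1.36), and the interval included 1. Among peaks of at least 6-fold with a −log10 q of at least 5 the direction turned, with 14 mitotic and 10 asynchronous peaks, a ratio of 1.40.

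The first cluster, from 38030628 to 38167720, was the main one, and the lists filled it differently. It held 15 mitotic peaks covering 28767 bp and 26 asynchronous peaks covering 20589 bp. The mitotic peaks had a median of 6.94-fold and the asynchronous ones of 4.79-fold. The lists shared 6654 bp, a Jaccard index of 15.6%, with 7 mitotic (46.7%) and 10 asynchronous peaks (38.5%) meeting one another. In the whole satellite 2 rich part, 41.7% of mitotic and 41.9% of asynchronous peaks met, against 79.2% and 81.9% of the whole lists. The strongest mitotic peak of the cluster, 4969 bp from 38071880 at 8.51-fold, was 40.1% covered by an asynchronous peak of 5.89-fold. The next, 4061 bp from 38091386 at 7.84-fold, met none. The strongest asynchronous peak here, 1144 bp from 38097203 at 7.25-fold, met no mitotic peak, nor did the one of 671 bp from 38046903 at 7.19-fold. As in the array, most numbered calls had been removed, 51 mitotic and 71 asynchronous.

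**Figure D4:**
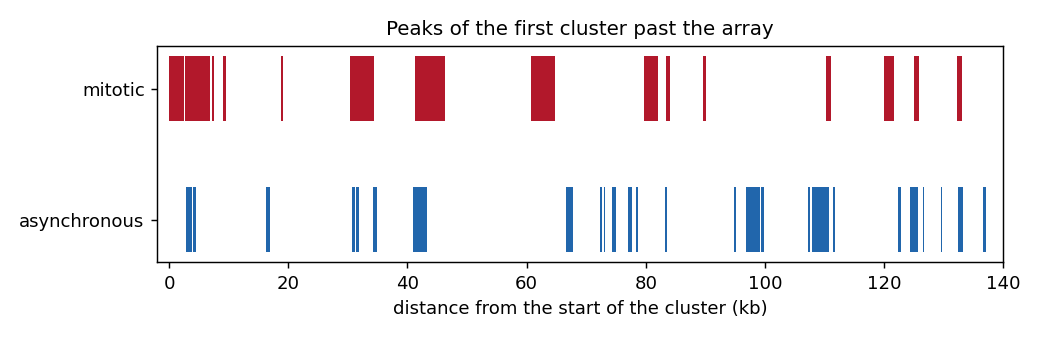
Listed peaks of the first cluster as bars against the distance from its start at 38030628 (x, kb), mitotic cells above and asynchronous cells below. The 15 mitotic bars are fewer and wider than the 26 asynchronous ones, and most bars of one row have no counterpart in the other.

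The second cluster, from 39395977 to 39400623, was largely shared between the lists. It was covered over 96.6% in mitotic cells and 86.9% in asynchronous cells, with 2 peaks in each list and a Jaccard index of 83.5%. Its mitotic peaks reached 10.2-fold and 9.59-fold, and its asynchronous peaks 8.20-fold and 6.76-fold. Of the whole mitotic list, 22.4% and 29.0% of peaks were above these mitotic values. Of the whole asynchronous list, 43.7% and 63.3% were above the asynchronous ones. The mitotic peak of 10.2-fold, 3422 bp from 39395977, was the strongest past 38000000 and the only one there in the top 25% of its list. No call of either list was missing within this cluster.

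The third cluster, from 39503328 to 39545556, began at the same place in both lists and then diverged. Its first mitotic peak was 5970 bp wide at 9.30-fold, and the first asynchronous peak, 2144 bp wide at 7.74-fold, lay wholly within it. The strongest asynchronous peak past 38000000, 5769 bp from 39518104 at 8.78-fold, met no mitotic peak, and 6 mitotic calls were missing in the cluster. The cluster held 1 further mitotic peak, of 227 bp at 39545330.

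Most of the satellite 2 block was bare in both lists. After the third cluster, 1 mitotic peak of 162 bp stood at 49045029, at 4.26-fold. A group of 4 mitotic peaks followed from 52183154 to 52197094, which were 168 to 242 bp wide and had 2.529 to 3.003-fold enrichment. Their pileup was 10.1 to 11.4, above the median of 7.88 for the mitotic centromeric peaks but near that of the whole mitotic list, 10.14. Pileup divided by fold enrichment, which rises with local background, was 3.38 to 4.52 in them against a median of 1.21 in the centromeric peaks. Of all mitotic peaks 99.6% had a lower value than each of these 4. The asynchronous list had no peak between 39523872 and 86043254.

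The bare block was not free of calls. Between 39545557 and 49045028 there were 430 mitotic calls, all removed, or 45.3 removed calls per Mb. The short arm up to 33002228 had 43.2 removed mitotic calls per Mb and the long arm past 53635372 had 37.9, both somewhat fewer than this stretch. Nearer the array the density varied, at 52.8 between the array and the first cluster and 31.65 between the first and second clusters. In the asynchronous list the block could not be separated from the rest of the arm. From 39523873 to 86043253 there were 315 calls, all removed, or 6.77 per Mb, and the short arm had 198 calls over 33.0 Mb. Mitotic calls were thus several times as frequent as asynchronous ones on the short arm and past the third cluster, whereas the array had 1758 mitotic and 1456 asynchronous calls. Whether the libraries differed in depth is not known from the lists, and its part in the counts was not tested.

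**Figure D5:**
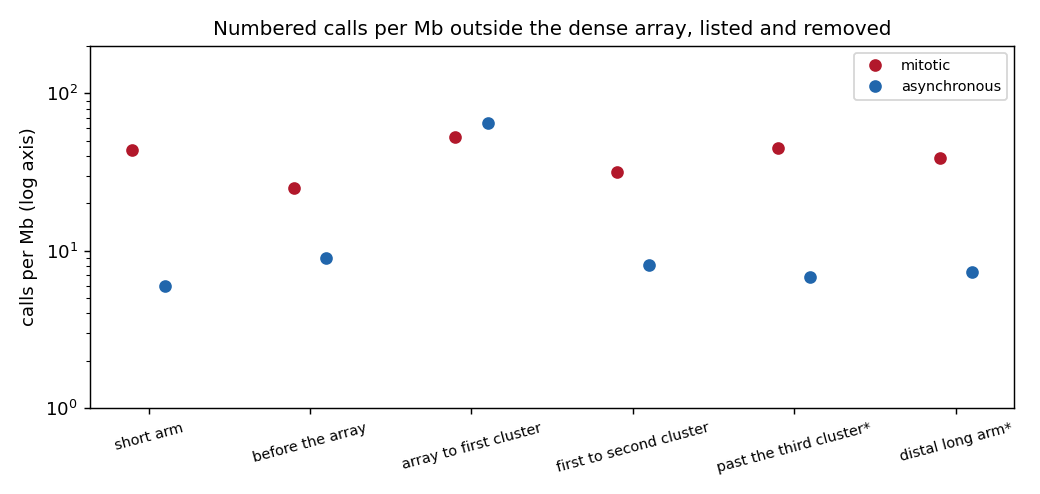
Numbered calls per Mb, listed and removed together (y, log axis), in segments of chromosome 16 outside the dense array (x), with mitotic cells in red and asynchronous cells in blue. In the segments marked with an asterisk the lists cover different lengths, because each segment ends at a listed peak: past the third cluster the mitotic segment is 9.50 Mb and the asynchronous one 46.5 Mb long. The mitotic points lie above the asynchronous ones in all segments except that between the array and the first cluster, at 52.8 and 64.7 calls per Mb.

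Windows on the other chromosomes with large classical satellite blocks gave different values, which were set side by side without a test. The array window of chromosome 1, from 121 to 128 Mb, held 2759 mitotic and 2497 asynchronous peaks. Their median was 7.10-fold in mitotic and 7.44-fold in asynchronous cells, and the Jaccard index was 59.5%. That of chromosome 9, from 44 to 48 Mb, held 481 mitotic and 497 asynchronous peaks, with medians of 10.2-fold and 9.39-fold and an index of 82.2%. The chromosome 16 array was below both in fold enrichment and overlap, and covered 43.5% of its span in mitotic cells, against 48.7% on chromosome 1 and 83.3% on chromosome 9. The authors' filter also left fewer calls on chromosome 16, with 40.7% of mitotic calls listed in the array, against 58.3% in the chromosome 1 window and 77.1% in the chromosome 9 window.

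The long-arm windows of these 3 chromosomes also differed in what they held. From 128 to 142 Mb on chromosome 1 there were 38 mitotic peaks and 1 asynchronous peak. The mitotic ones had a median of 193 bp and 3.63-fold and none met an asynchronous peak. From 48 to 77 Mb on chromosome 9 there was 1 mitotic peak and no asynchronous peak. None of these peaks reached a fold enrichment of 6, whereas in the satellite 2 rich part of chromosome 16, 14 of 24 mitotic peaks (58.3%, 36.6 to 77.9%) and 10 of 31 asynchronous peaks (32.3%, 16.7 to 51.4%) reached at least 6 with a −log10 q of at least 5. All 14 and 10 lay in the first 3 clusters, within 1.55 Mb of the boundary at 38000000. The windows are not matched in the stretch next to the array: the last array peak ended 140 kb in mitotic and 137 kb in asynchronous cells before the boundary on chromosome 16, against 508 and 1183 kb on chromosome 1 and 394 and 393 kb on chromosome 9.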

How the data were processed

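Sample titles gave the groups, with Odd and Even as 2 libraries of 1 group, and per the labels both went into 1 merged peak list. Per the submitters' processing notes the tools were fastp, Bowtie2 and MACS2, on build hs1, with no versions. The settings, the control library, the placement of reads that match many repeat copies and the filter behind the lists were not stated. RPE1 reads were placed on an assembly of another genome, so array lengths can differ from those of the cells. The lists have no header. Columns were read from the values and the column order of the MACS2 table: the deposited pileup signal, in an unstated scaling, the deposited fold enrichment ratio and the deposited −log10 q value. The deposited p-values and 3 deposited score columns of unstated meaning were not used. Positions are 1-based.

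Peaks were counted, joined and intersected within the lists; a share has a Clopper-Pearson interval, and a ratio of 2 counts an exact conditional binomial one. Named sites were, in each list and part, the 5 peaks with the highest fold enrichment and the 5 widest, every cluster past 38000000, and the 3 bins with the largest difference in each direction; further bins, the lone peak and the uncovered stretches were picked after their values were seen. The widest peaks are named where they add to the others. The members and all choices were made with earlier results of these lists known. The code was tested on simulated data. No gene or repeat is named from an annotation, since the gene table at hand is of another build, and no sequence is shown. Alternatives were the overlap, the filter, the boundary, the joining gap and the position of a peak. The software was scipy 1.17.1, pandas 2.3.3 and numpy 2.4.6 under Python 3.11.15, with figures from matplotlib 3.10.9.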

Additional observations from a re-analysis of the deposited data

How the results depend on the processing

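The array's excess of mitotic peaks and near-equal covered length kept their direction with peaks of at least 6-fold and a −log10 q of at least 5 and with the boundary moved by 1 Mb. No paired analysis was possible because each condition has 1 merged list. With peaks of at least 6-fold and a −log10 q of at least 5, the centromeric part had 441 mitotic and 346 asynchronous peaks, a Jaccard index of 34.9%, medians of 7.05 and 7.02-fold and of 1248 and 1446 bp, and 58.5% of mitotic peaks met. The satellite 2 rich part then had 14 mitotic and 10 asynchronous peaks, so the ratio of peaks turned to 1.40, the ratio of covered length was 1.91, asynchronous coverage was 18150 bp with medians of 7.03-fold and 1294.5 bp, and the index was 14.5%. With the top 25% of each list, the centromeric part had 2 mitotic and 4 asynchronous peaks, a ratio of 0.5, covering 14912 and 6856 bp, a ratio of 2.18. The satellite 2 rich part then had 1 mitotic peak of 3422 bp, and 0 asynchronous peaks covering 0 bp. With that filter 0% of peaks met in any of the 3 sets left, and both indices were 0%. With a reciprocal overlap of 50%, 28.5% of mitotic and 33.8% of asynchronous centromeric peaks met, and 12.5% and 9.68% past 38000000. The shares of the whole lists under that rule were 51.3% and 53.8%. A boundary at 37000000 cuts the array: it left 418 mitotic and 368 asynchronous centromeric peaks covering 539046 and 535952 bp, and 322 and 266 past it covering 449975 and 439809 bp, which turned the ratio of peaks there to 1.21. A boundary at 39000000 moves the first cluster to the centromeric part: it left 9 mitotic and 5 asynchronous peaks past it, a ratio of 1.80, covering 11682 and 12821 bp, a ratio of 0.911. For covered length the direction past 38000000 therefore rests on the first cluster. For the number of peaks the turn to 1.80 also needed the outlying mitotic peaks, 1 at 49045029 and 4 from 52183154, with 0 asynchronous peaks there. The cluster from 39395977 had 2 mitotic and 2 asynchronous peaks, and that from 39503328 had 2 mitotic and 3 asynchronous peaks. The most frequent distance was 2899 bp from midpoints and 2976 bp from ends in the mitotic list, and 1564 and 1903 bp in the asynchronous list. Joining at 20 or 500 kb gave 6 or 4 clusters. Leaving out the ends of the array, an alternative chosen after seeing the data, gave medians of 6.42 and 6.36-fold.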
